A study of Mus musculus with 9 samples.

Results

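The RNA of 43 genes of mitosis, the spindle and condensin was followed in naive mouse embryonic stem cells after control transfection and after Stag3 knockdown. The genes were picked by symbol for their known roles in cell division, not by measured values, though earlier results of these data were known. All 43 were among the 16636 genes counted, and all 43 passed the filter on low counts that left 14246 genes for testing. None of them passed the test between Stag3 siRNA and control siRNA, where only 0.014% of all genes were higher and 0.014% lower. 1 gene, Hmmr, was higher in control siRNA than in untreated cells, where 1.65% of all genes were. That call was lost without the set as a covariate, in Set 1 alone and after GC correction. It was also lost with the experiment as a further covariate, where the Set 3 siLuc library carries no weight. DESeq2 kept it. With 1 library left out, 0 to 15 of the 43 genes were called higher, beside 8.39% of all genes in the fit with 15. The widest differences lay between the sets of libraries, where 22 of the 43 genes were lower and 5 higher in Set 3 than in Set 1, beside 21.2% of all genes lower and 21.4% higher.

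The cells were wildtype E14, a single established line of mouse embryonic stem cells, labelled embryo as source and kept naive in 2i/LIF, a medium that blocks MEK and GSK3 and supplies the cytokine LIF. There were 3 groups of 3 biological replicates: cells with no treatment, cells given a luciferase siRNA (siLuc) and cells given Stag3 siRNA (siStag3). Each transfected well received 50 pmol siRNA at seeding and again on the next day, and the treatment lasted 48 hours. The label of the untreated cells gives no treatment, so siLuc against untreated covers the transfection and the control siRNA together. Each group held 2 libraries of Set 1, from experiments 1 and 3, and 1 library of Set 3, and what a set or an experiment stands for is not given in the sources used here. In Set 3 the siLuc library came from experiment 1 and the other libraries from experiment 5, so within Set 3 the differences of siLuc from either other group cannot be told apart from those between the experiments.

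Mitosis is driven by cyclin B with the kinase CDK1, followed by the Polo and Aurora kinases, and ends when the anaphase-promoting complex with CDC20 destroys cyclin B. Kinetochores tie chromosomes to spindle microtubules under the watch of the spindle checkpoint, while condensin and topoisomerase II shape the chromosomes. Many of these genes are transcribed late in the cell cycle through a short promoter element named CHR, which recruits the MuvB core with B-MYB and FOXM1, often beside CCAAT boxes bound by NF-Y. STAG3, the target of the knockdown, is a cohesin subunit best known from meiosis.

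Promoter windows show what the genes share beyond their roles. Windows from 250 bases before to 50 after the start site were taken from RefSeq on GRCm38.p6, and 37 of the 43 genes had one. CHR was searched in its common form, TTTGAA, and in a rarer variant, which reads TTCGAA. The CCAAT box was searched by the letters of its name. For E2F sites the searched letters were TTCCCGC and, as a second form, TTTGGCGC. Both strands were read, and overlaps between motifs were allowed. A CHR match was present for 30 of 37 mitotic genes (81.1%), against 17.6% of 12934 counted genes with a window and 21.7% of all 27025 genes in the RefSeq table. A CCAAT box was present for 28 of 37 (75.7%), against 5562 of the 12934 counted genes and 41.1% of the table. Both occurred in the same window for 25 of 37 (67.6%), against 7.44% and 8.61%. E2F letters were found for 3 of 37 (8.11%), in Kif15, Ncapd2 and Ncapg, against 9.51% and 5.79%. Such a match is a description of letters, not of a bound site.

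The stretches printed here run from 100 bases before to 30 bases after the start site of 7 genes with both elements, among them the genes that the later comparisons turn on. Capitals mark matches to the CHR and to the CCAAT box, read on either strand, and each sequence is written 5′ to 3′ on the gene's strand.
Cdk1, chr10:69352883-69353012, minus strand: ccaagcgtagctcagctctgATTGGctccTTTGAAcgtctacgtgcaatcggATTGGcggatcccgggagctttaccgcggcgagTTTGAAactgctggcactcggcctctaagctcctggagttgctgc
Ccnb2, chr9:70421525-70421654, minus strand: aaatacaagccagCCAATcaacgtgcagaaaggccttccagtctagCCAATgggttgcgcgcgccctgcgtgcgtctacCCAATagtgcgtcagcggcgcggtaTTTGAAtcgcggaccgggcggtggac
Cdc20, chr4:118437314-118437443, minus strand: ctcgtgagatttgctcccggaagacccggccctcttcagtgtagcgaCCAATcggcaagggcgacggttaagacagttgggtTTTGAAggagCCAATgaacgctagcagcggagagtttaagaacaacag
Ttk, chr9:83834589-83834718, plus strand: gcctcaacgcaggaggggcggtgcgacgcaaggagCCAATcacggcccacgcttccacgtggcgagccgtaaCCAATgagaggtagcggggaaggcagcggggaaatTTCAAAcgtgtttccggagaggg
Kif11, chr19:37376282-37376411, plus strand: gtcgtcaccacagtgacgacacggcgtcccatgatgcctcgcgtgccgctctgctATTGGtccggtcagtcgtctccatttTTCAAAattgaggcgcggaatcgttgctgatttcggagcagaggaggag
Cenpf, chr1:189688057-189688186, minus strand: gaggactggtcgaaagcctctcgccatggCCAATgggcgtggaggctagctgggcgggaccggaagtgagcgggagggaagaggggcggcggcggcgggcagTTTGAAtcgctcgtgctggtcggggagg
Hmmr, chr11:40733408-40733537, minus strand: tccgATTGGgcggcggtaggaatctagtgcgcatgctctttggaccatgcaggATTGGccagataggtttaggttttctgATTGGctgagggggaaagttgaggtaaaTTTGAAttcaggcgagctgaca
In these windows the CHR began at position -15 and again at -71 for Cdk1, at -18 for Cdc20, at -19 for Kif11, and just inside the transcript at 3 for Cenpf, 5 for Ccnb2, 8 for Ttk and 9 for Hmmr, counting from 1 at the start site. CCAAT boxes lay upstream of the CHR closest to the start site in all 7, and Cdc20 had a further box between its CHR and the start site.

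**Figure D1:**
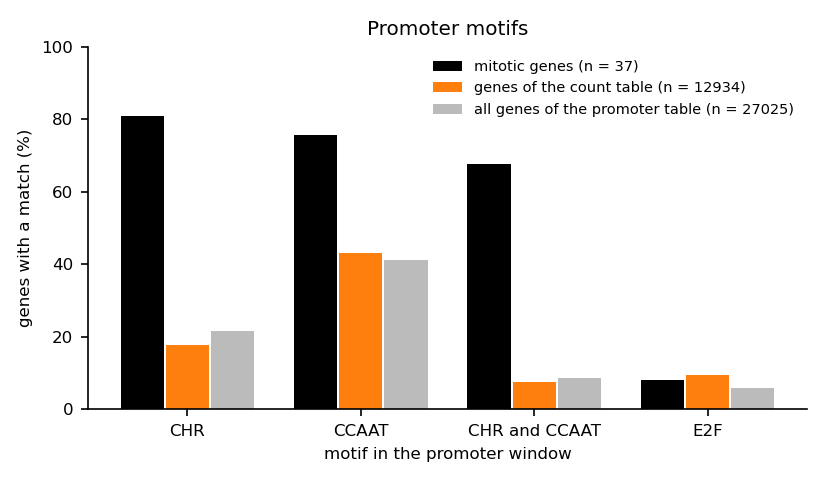
Share of genes with a match to each promoter motif in the promoter window (percent, vertical axis) for 37 mitotic genes, 12934 genes of the count table and 27025 genes of the RefSeq table. The bars of the mitotic genes reach 81.1% for CHR and 75.7% for CCAAT, and for E2F all 3 bars lie under 10%.

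The libraries held 29332436 to 44527534 counts, of which the 43 genes took 0.748% to 0.850%, and a single mitotic gene had 1433 to 38461 counts in a library. Stag3 itself was at 24.1, 24.3 and 28.6 CPM, the count relative to a library total scaled by TMM, in untreated cells, 22.5, 23.3 and 26.6 in siLuc and 13.5, 15.2 and 15.6 in siStag3. The siStag3 libraries were all below the others. The log2 difference from siLuc was -0.71 (SE 0.0722, edgeR adjusted p = 0.00205) with the set as a covariate, and the call was lost without it (-0.71, adjusted p = 0.605). Naive markers such as Pou5f1, Nanog, Esrrb and Zfp42 summed to 4755 to 5202 CPM over 9 genes in every library, while 6 fibroblast, 6 primitive endoderm and 4 trophoblast markers summed to at most 4.54, 3.81 and 6.73 CPM. The 4 primed epiblast markers summed to 163 to 189 CPM, most of it Dnmt3b.

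Summed over the 43 genes, mitotic RNA was at 7866 and 8008 CPM in the Set 1 untreated libraries and 7227 in the Set 3 one. It was at 8724, 8609 and 7752 in siLuc and at 8628, 8666 and 7240 in siStag3, in the same order. The groups overlapped, with means of 7700 ± 416 untreated, 8362 ± 531 siLuc and 8178 ± 813 siStag3 (SD, n = 3). The sets did not overlap: Set 1 libraries ran from 7866 to 8724 CPM and Set 3 libraries from 7227 to 7752. In bulk RNA, fewer cells in mitosis and less mitotic RNA per cell cannot be told apart.

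**Figure D2:**
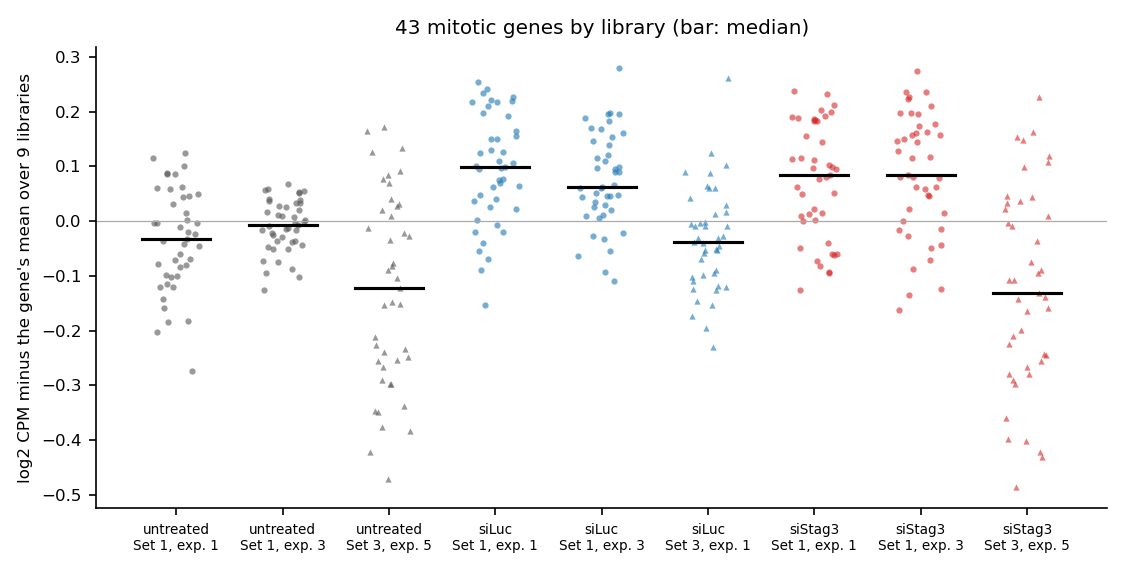
Deviation of each of the 43 mitotic genes from its own mean over 9 libraries (log2 CPM, vertical axis) in each library, with the median as a bar, circles for Set 1 and triangles for Set 3. The medians were 0.06 to 0.10 in the 4 transfected Set 1 libraries and lowest, at -0.12 and -0.13, in the untreated and siStag3 libraries of Set 3, whose genes also spread most widely.

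Per kilobase of the longest annotated transcript, the untreated cells held most RNA of Top2a, the topoisomerase that untangles sister chromatids, at 168 ± 17.6 CPM per kilobase (SD, n = 3). Ccnb1, cyclin B1, followed at 155 ± 17.7, which differs from Top2a by less than the spread. Cdc20 and Ube2c, which activate and serve the anaphase-promoting complex, came next at 111 ± 3.56 and 105 ± 7.91, also within their spread of each other, ahead of Kif20a at 83.3 ± 1.41. The lowest levels per kilobase were those of Nuf2 (13.4 ± 0.959), Mad2l1 (15.4 ± 0.672) and Kif4 (15.6 ± 1.04). These ranks depend on the transcript taken for the length. That of Mad2l1 has 7557 bases, against a median of 3806 for the 43 genes. Which transcripts the cells held was not measured here. Related copies make some levels uncertain: 46.9% of the 31-base words of Ccnb1 occur in other genes, mostly in a pseudogene, and 27.4% of Cdc20, 15.2% of Plk1 and 8.67% of Kif11. Reads could also be shared with genes on the opposite strand at Ccna2 (Exosc9), Cdc20 (Elovl1), Kif20a (Cdc23), Ncapg (Lcorl) and Ube2c (Tnnc2), since the strand setting of the counting is not given in the sources used here. The same holds for Kif4 (Pdzd11), Prc1 (Rccd1), Cdca8 (9930104L06Rik), Nek2 (Gm38037) and Plk1 (Gm44985). Ncapd2 (Gm28967 and Scarna10) and Top2a (Gm23451) overlap genes on their own strand.

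The first comparison asked whether mitotic RNA differs between Stag3 knockdown and control siRNA. 0 of 43 genes passed an adjusted p of 0.05 in either direction by edgeR, where 0.014% of all tested genes were higher and 0.014% lower. 0 of the 43 had an unadjusted p under 0.05, against 1122 of 14246 genes, and 0 passed by DESeq2. 13 of the 43 estimates were above 0, with a median of -0.03, beside -0.005 for all genes tested. Every 95% interval lay between -0.41 (Smc4) and 0.20 (Plk1) on the log2 scale, with a median distance of 0.126 from the estimate to its bound. These intervals are not adjusted for the number of genes tested.

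Among the entry genes, Ccnb1 was at 381, 434 and 346 CPM in untreated cells, 503, 479 and 391 in siLuc and 488, 501 and 346 in siStag3, each time with the Set 3 library last. The Set 3 library was the lowest of each group, and siLuc and siStag3 overlapped; siStag3 differed from siLuc by -0.05 (SE 0.0681). Cdk1 encodes the kinase that cyclin B activates. Its CPM was 199, 206 and 199 untreated, 211, 197 and 181 in siLuc and 208, 219 and 188 in siStag3, a log2 difference of 0.06 (SE 0.0581) between the siRNAs. Plk1, the Polo kinase of centrosomes and kinetochores, was at 138, 121 and 135 untreated, 132, 137 and 124 in siLuc and 132, 126 and 147 in siStag3, a difference of 0.04 (SE 0.0715). For both kinases all 3 groups overlapped. The other entry genes, Ccna2, Ccnb2, Aurka and Nek2, differed by -0.03 to 0.05.

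The 7 genes of the checkpoint and the anaphase-promoting complex differed between the siRNAs by -0.04 to 0.05, 5 of them above 0. Cdc20 was at 200, 192 and 205 CPM untreated, 193, 199 and 188 in siLuc and 183, 190 and 209 in siStag3. Its siStag3 libraries spanned those of both other groups, with a difference of 0.002 (SE 0.0586). In the chromosomal passenger complex, whose kinase AURKB corrects faulty attachments, Aurkb itself was at 68.8, 66.2 and 73.9 CPM untreated, 65.6, 66.8 and 76.1 in siLuc and 66.8, 64.0 and 81.7 in siStag3. Here the Set 3 library was the highest of each group, and siStag3 differed from siLuc by 0.02 (SE 0.0592).

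Kinetochore and condensin genes had the smallest p-values, none past the threshold. Cenpe, a kinesin that carries chromosomes to the spindle equator, was at 152, 142 and 116 CPM untreated, 165, 162 and 132 in siLuc and 162, 158 and 108 in siStag3. Cenpf, a large kinetochore protein, was at 249, 234 and 181 CPM untreated, 270, 279 and 196 in siLuc and 266, 263 and 164 in siStag3. In both genes the Set 1 libraries of the siRNA groups lay close together, and the Set 3 siStag3 library was the lowest of all 9. The differences were -0.12 for Cenpe (SE 0.0635, edgeR adjusted p = 0.688) and -0.12 for Cenpf (SE 0.0628, adjusted p = 0.665).

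Smc2 and Smc4 form the ATPase core of every condensin. Smc2 was at 223, 230 and 179 CPM untreated, 266, 262 and 227 in siLuc and 268, 255 and 170 in siStag3, a difference between the siRNAs of -0.14 (SE 0.0729, edgeR adjusted p = 0.652), the smallest p of the 43. Smc4 was at 241, 303 and 210 CPM untreated, 339, 310 and 349 in siLuc and 336, 316 and 254 in siStag3, a difference of -0.15 (SE 0.116). For both, siLuc and siStag3 overlapped in Set 1 and parted in the single library of Set 3, where the differences were -0.41 and -0.46. The condensin I subunits Ncapd2, Ncapg and Ncaph differed by -0.05, -0.13 and 0.02.

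The spindle motors and the cytokinesis genes were all 12 slightly below 0, by at most 0.13 (Kif20b). Kif11, the motor that pushes spindle poles apart, was at 241, 248 and 206 CPM untreated, 272, 269 and 229 in siLuc and 272, 271 and 206 in siStag3. Kif23, a motor of the central spindle, was at 124, 123 and 122 CPM untreated, 127, 125 and 129 in siLuc and 124, 122 and 121 in siStag3. The Kif11 libraries of the siRNA groups overlapped, whereas the siLuc libraries of Kif23 were all just above the siStag3 ones. Top2a, the most abundant per kilobase, was at 918, 944 and 773 CPM untreated, 1084, 1056 and 867 in siLuc and 1080, 1083 and 773 in siStag3. Mki67, which coats mitotic chromosomes, was at 384, 332 and 295 CPM untreated, 371, 401 and 328 in siLuc and 400, 381 and 297 in siStag3. For Top2a and Mki67 siLuc and siStag3 overlapped. The differences between the siRNAs were -0.04 for Kif11 (SE 0.0543), -0.06 for Kif23 (SE 0.0511), -0.04 for Top2a (SE 0.0573) and -0.04 for Mki67 (SE 0.0653).

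**Figure D3:**
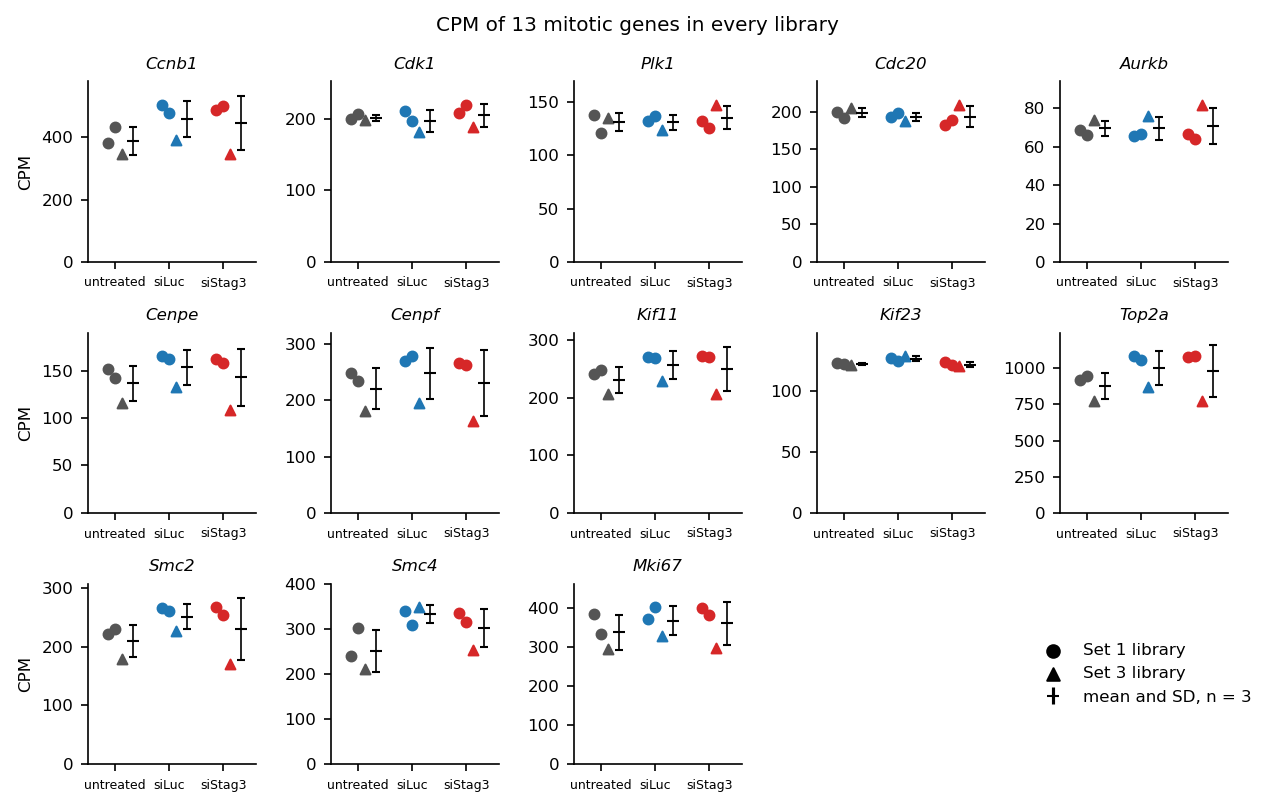
CPM (vertical axis, from 0) of 13 mitotic genes in each of 9 libraries, with circles for Set 1, triangles for Set 3, and the mean and SD of 3 libraries beside each group. The libraries of Kif23 stay between 121 and 129 CPM, whereas the triangles of Ccnb1, Cenpf, Top2a and Smc2 lie below the circles in each group and those of Aurkb above.

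Within Set 1, which holds 2 libraries of each group, 22 of 43 genes were above 0 in siStag3 against siLuc, with a median log2 CPM difference of 0.001 and a range from -0.11 to 0.11. Within Set 3, with 1 library each, 18 of 43 were above 0, the median was -0.07 and the range -0.46 to 0.25. Signs were the same in both sets for 17 genes, 7 above and 10 below 0. Fitted on Set 1 alone, 0 of the 43 genes passed and 0 had an unadjusted p under 0.05, against 808 of 14328 genes.

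The second comparison set siLuc, which covers the transfection and the control siRNA together, against untreated cells. Hmmr, a microtubule-binding protein of the spindle, was at 132, 138 and 105 CPM untreated, 163, 157 and 136 in siLuc and 159, 169 and 115 in siStag3. In each set the siLuc libraries were above the untreated ones, though the Set 3 siLuc library lay within the untreated range. Its log2 difference was 0.29 (SE 0.0634, edgeR adjusted p = 0.0264), and of the 43 genes only Hmmr rose, at a background of 1.65% of genes higher and 2.55% lower. 0 of 43 were lower, with 1 below 0 at an unadjusted p under 0.05 (Cenpa, the centromeric histone, -0.12, SE 0.0533) and 0 by DESeq2. The call for Hmmr was lost in the fit without the set (0.28, adjusted p = 0.600), where 0 of 43 passed and 0.00702% of all genes did, and also in Set 1 alone (0.25, adjusted p = 0.0549). With the experiment number as a further covariate, a fit added after the data were seen, it was lost as well (0.22, SE 0.0668, edgeR adjusted p = 0.215). 0 of 43 passed in that fit, where the share of all genes called was not counted. The Set 3 siLuc library, alone in its set and experiment, gets a term of its own there and so carries no weight.

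With Hmmr included, 31 of the 43 estimates lay above 0, with a median of 0.08 against -0.002 for all genes tested. Also with Hmmr, 19 of the 43 had an unadjusted p under 0.05, 18 of them above 0, against 3964 of 14246 genes. The smallest p-values after Hmmr were those of Smc2 (0.26, SE 0.0728, edgeR adjusted p = 0.0558) and Ncapg (0.30, SE 0.0845, adjusted p = 0.0610). The largest estimate was that of Smc4 at 0.42 (SE 0.116, adjusted p = 0.0661). By role, the condensin and chromosome genes had a median of 0.19 with 6 of 7 above 0. Spindle motors and microtubule proteins had 0.16 with 6 of 6 above 0, kinetochore genes 0.15 with 5 of 6, checkpoint genes 0.08 with 5 of 7, cytokinesis genes 0.07 with 5 of 6 and entry genes 0.05 with 4 of 7. The chromosomal passenger complex stood at -0.02 with 0 of 4 above 0. These are descriptions of estimates, most of which did not pass the test.

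How many of these genes passed depended on the fit. Leaving out the Set 3 siStag3 library, which takes no part in this contrast but enters the shared estimate of spread, brought the count to 15 of 43, while 8.39% of all genes were then higher. DESeq2 called 10 (4.6% of all genes higher), and the fit of only the 6 untreated and siLuc libraries called 10 (6.06% higher). The share of all genes called was thus also above the 1.65% of the main fit. Whether the mitotic genes rose further than all genes was not tested. Leaving out the Set 3 siLuc library or the untreated Set 3 library gave 0, as did leaving out the untreated, the siLuc or the siStag3 library of Set 1 experiment 1. Without the siLuc library of Set 1 experiment 3 the count was 2, Hmmr and Smc4. Without the untreated library of that experiment Smc4 alone passed (0.54, SE 0.0970, edgeR adjusted p = 0.0137), and Hmmr did not (adjusted p = 0.0507). For the fits without a Set 1 library, the untreated Set 3 library or the siLuc Set 3 library, the share of all genes called was not counted. Within Set 1, 36 of 43 genes were above 0, with a median log2 difference of 0.11. Within Set 3, 26 of 43 were, with a median of 0.08, and 25 genes were above 0 in both sets.

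The third comparison, siStag3 against untreated, shares the untreated libraries with the second. 0 of 43 genes passed by edgeR, at a background of 1.08% higher and 1.47% lower. 8 of the 43 had an unadjusted p under 0.05, 7 of them above 0, against 2417 of 14246 genes. DESeq2 called 1, Hmmr, and the share of all genes it called here was not counted. 34 estimates were above 0, with a median of 0.07 against -0.006 for all genes. The smallest p-values were those of Hmmr at 0.23 (SE 0.0634, edgeR adjusted p = 0.0724), Bub1, a checkpoint kinase, at 0.19 (SE 0.0643, adjusted p = 0.152) and Ccnb1 at 0.19 (SE 0.0682, adjusted p = 0.175). Bub1 was at 155, 165 and 141 CPM untreated, 181, 180 and 176 in siLuc and 182, 194 and 151 in siStag3. Its siLuc libraries were all above the untreated ones, whereas the Set 3 siStag3 library was within the untreated range.

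In Set 1 alone 7 of 43 genes rose in siStag3 against untreated, where 3.17% of all genes were higher: Ccna2, Ccnb1, Bub1, Hmmr, Ect2, Smc2 and Top2a. Their log2 differences were 0.21 to 0.31. All 7 were among the 33 mitotic genes with a GC content below the median of all genes tested, and 0 of the other 10 passed. This fit had no correction for GC. In it 2 of 20 genes of the G1/S transition were called higher too. Ect2 is the exchange factor that activates RhoA for the cleavage furrow. Without the Set 3 siStag3 library 10 genes rose at a background of 5.52%, adding Mad2l1, Kif20b and Ncapg. Without the Set 3 siLuc library 1 gene, Hmmr, passed, and the share of all genes called was not counted. Within Set 1, 33 of 43 genes were above 0 with a median of 0.11, and within Set 3 19 of 43 with a median of -0.01. In the fit without the set 0 passed, as did 0.014% of all genes, and between siStag3 and siLuc that fit gave 0 of 43 and 0% of all genes.

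**Figure D4:**
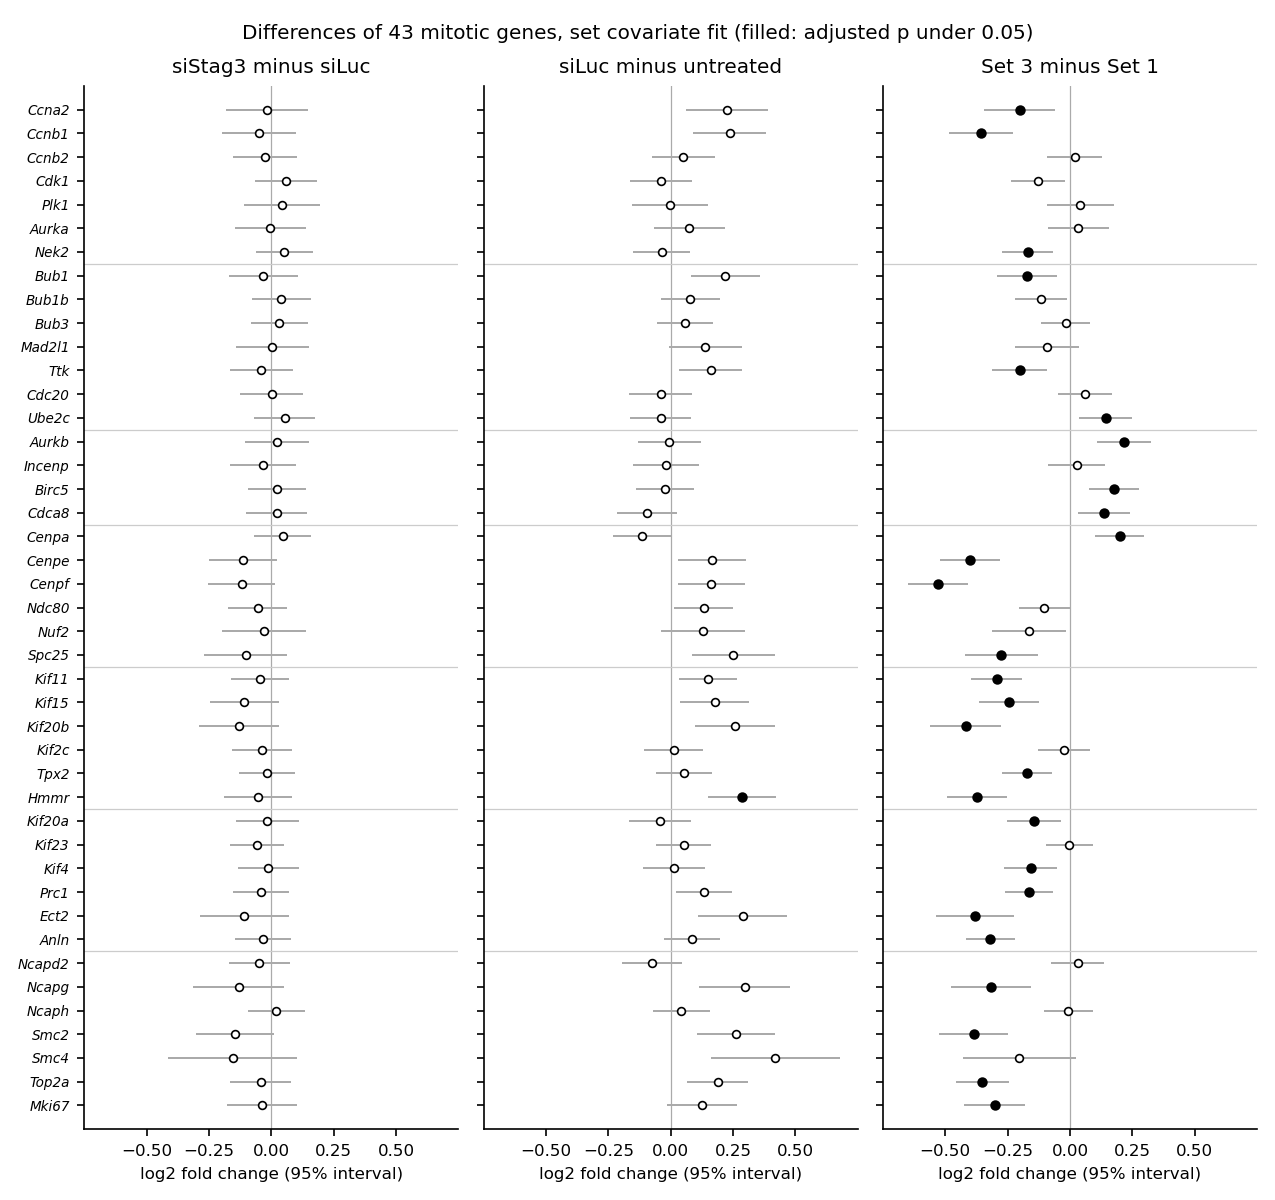
Log2 fold changes of the 43 mitotic genes (horizontal axis) with 95% intervals for siStag3 against siLuc, siLuc against untreated and Set 3 against Set 1, with grey lines between roles and filled points at an adjusted p under 0.05. No point is filled for the siRNAs, 1 (Hmmr) for siLuc against untreated, and 27 between the sets, of which 22 lie below 0.

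Between the sets the differences were wider. In Set 3, 22 of 43 mitotic genes were lower and 5 higher than in Set 1, beside 21.2% of all genes lower and 21.4% higher. The median was -0.16, against 0.003 for all genes tested. The largest falls were those of Cenpf (-0.53, SE 0.0556, edgeR adjusted p = 1.52e-05), Kif20b (-0.42, SE 0.0657, adjusted p = 0.000279) and Cenpe (-0.40, SE 0.0559, adjusted p = 0.000120). Smc2 (-0.39, SE 0.0641, adjusted p = 0.000410) and Ect2 (-0.38, SE 0.0728, adjusted p = 0.00117) followed. Cenpf stood at 164 to 196 CPM in the Set 3 libraries and 234 to 279 in those of Set 1, without overlap.

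The genes that were higher in Set 3 came mostly from the chromosomal passenger complex. Aurkb (0.22, SE 0.0508, edgeR adjusted p = 0.00398), Birc5 (0.18, SE 0.0465, adjusted p = 0.00823) and Cdca8 (0.14, SE 0.0484, adjusted p = 0.0354) encode its kinase and the subunits survivin and borealin. Cenpa rose by 0.20 (SE 0.0458, adjusted p = 0.00357) and Ube2c, the conjugating enzyme of the anaphase-promoting complex, by 0.14 (SE 0.0494, adjusted p = 0.0318). Incenp, the scaffold of the passenger complex, did not pass at 0.03 (SE 0.0536) and was lower after GC correction (-0.12, SE 0.0383, adjusted p = 0.0131). Among spindle motors and microtubule proteins 5 of 6 fell, among cytokinesis genes 5 of 6, among condensin and chromosome genes 4 of 7, among kinetochore genes 3 of 6, among entry genes 3 of 7 and among checkpoint genes 2 of 7. Of the condensin I subunits, Ncapg fell (-0.32, SE 0.0742, adjusted p = 0.00436), while Ncapd2 and Ncaph did not pass at 0.03 and -0.01. After GC correction this turned round: Ncapg no longer passed (-0.03, adjusted p = 0.542) and Ncapd2 did (-0.09, adjusted p = 0.0425).

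Whether the groups differed by set was tested as an interaction in edgeR, which left 3 residual degrees of freedom. 0 of 43 genes passed, as did 0.0421% of all genes, and 10 of 43 had an unadjusted p under 0.05, against 2268 of 14246 genes. The smallest edgeR adjusted p was 0.179, for Smc2.

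GC content moved with all of these estimates. The transcripts of the 43 genes held 34.8% to 56.0% GC, with a median of 46.3% against 49.6% for all genes tested, and 33 of 43 lay below that median. Across the 43 genes, the Spearman correlation of the log2 difference with GC was -0.844 for siLuc against untreated, 0.697 for siStag3 against siLuc, -0.735 for siStag3 against untreated and 0.737 between the sets. Over all genes tested these were -0.484, 0.373, -0.311 and 0.471. The genes share the same 9 libraries and are no independent points. In siLuc against untreated, 28 of the 33 low-GC genes were above 0 with a median of 0.14, and 3 of the other 10 with a median of -0.01.

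After the median deviation of genes of like GC was taken out of each library, the spread between replicates was smaller and the median of the mitotic genes was 0.03 for siLuc against untreated (32 of 43 above 0), 0.03 for siStag3 against untreated (32 of 43) and 0.002 for siStag3 against siLuc (23 of 43). Between siStag3 and siLuc 0 genes passed with this correction, where 0.175% of all genes were higher and 0.183% lower. 1 of the 43 had an unadjusted p under 0.05, against 1506 of 14246 genes. In siLuc against untreated, Smc4 was the 1 gene called higher (0.24, SE 0.0629, edgeR adjusted p = 0.0349), Hmmr no longer passed (0.12, SE 0.0415, adjusted p = 0.0794), and 3.19% of all genes were higher and 3.94% lower. Of the chromosomal passenger genes Aurkb and Incenp were then above 0. In siStag3 against untreated, Ccna2, cyclin A2 (0.18, SE 0.0542, adjusted p = 0.0496), and Hmmr (0.15, SE 0.0416, adjusted p = 0.0392) were higher, at a background of 3.21% higher and 3.33% lower. Between the sets 20 of 43 were lower and 6 higher, beside 21.1% and 21.4% of all genes, with a median of -0.09. The falls of Cenpf (-0.37, SE 0.0462), Cenpe (-0.24, SE 0.0430) and Top2a (-0.19, SE 0.0393) and the higher levels of Aurkb, Birc5, Cdca8 and Cenpa (0.17 to 0.23) were still called. Ube2c was then at -0.01. The part of GC content in the differences was not tested beyond this correction.

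**Figure D5:**
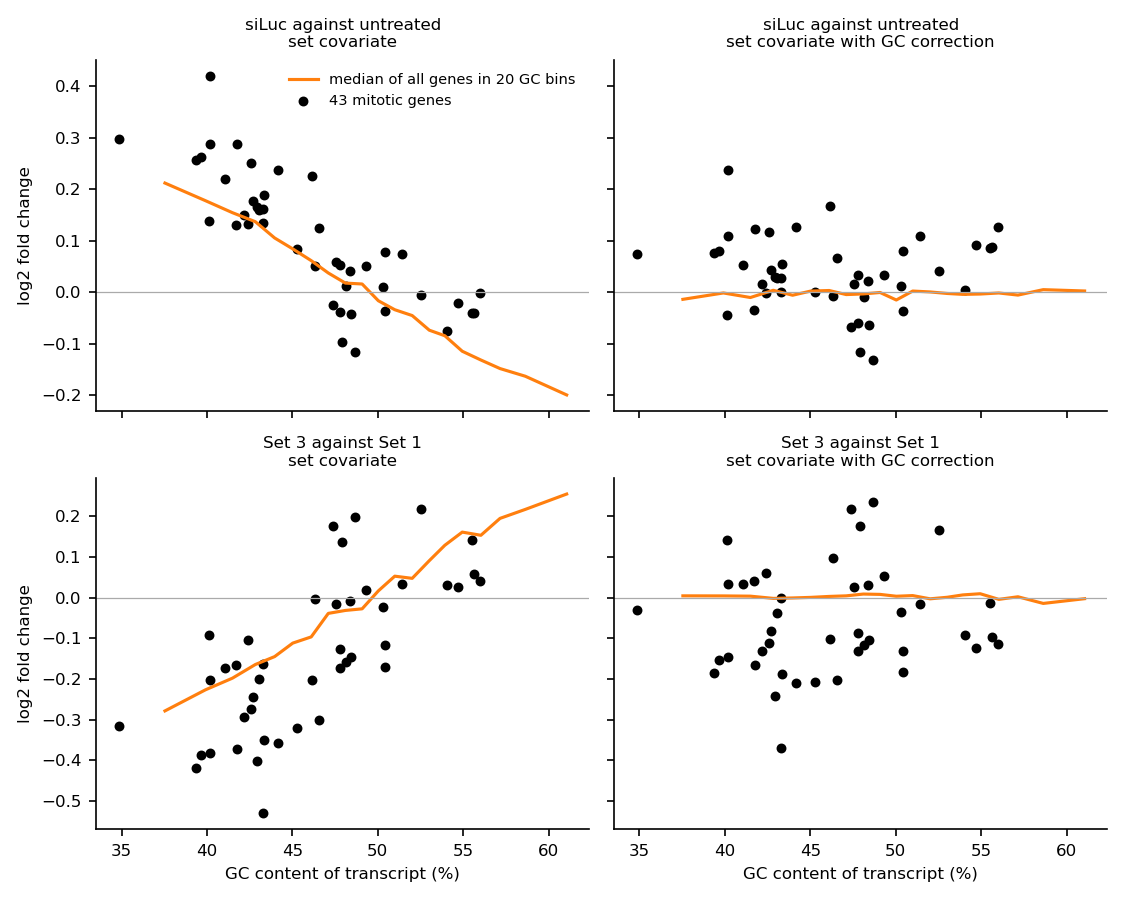
Log2 fold change (vertical axis) against GC content of the transcript in percent (horizontal axis) for the 43 mitotic genes (points), with the median of all genes in 20 GC bins (line), before and after GC correction. Before correction the points follow the line down for siLuc against untreated and up for Set 3 against Set 1; after it the line is flat, and 20 of 43 genes were still called lower between the sets.

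Other genes of the cell cycle were read in the same fits. Of 49 further mitosis genes, 0 passed between siStag3 and siLuc, and 3 had an unadjusted p under 0.05, against 1122 of 14246 genes. In siLuc against untreated 2 rose, Nusap1 (0.25, SE 0.0636, edgeR adjusted p = 0.0427) and the kinesin Kif18a (0.34, SE 0.0859, adjusted p = 0.0430), beside 1.65% of all genes higher. After GC correction neither passed (Nusap1 0.09, adjusted p = 0.210; Kif18a 0.12, adjusted p = 0.120), and Wee1, an inhibitory kinase of CDK1, was the 1 of 49 called higher (0.21, adjusted p = 0.0107). Without the correction 2 fell, Pkmyt1, which also inhibits CDK1 (-0.47, SE 0.0746, adjusted p = 0.00416), and Pttg1, securin (-0.38, SE 0.0853, adjusted p = 0.0307), beside 2.55% of all genes lower, and both passed after GC correction too. Pttg1 was also the 1 of 49 that fell in siStag3 against untreated (-0.49, SE 0.0855, adjusted p = 0.00833), beside 1.47% of all genes lower. After GC correction 2 of 49 were lower there, Pttg1 (-0.51, adjusted p = 0.00739) and Pkmyt1 (-0.21, adjusted p = 0.0120), beside 3.33% of all genes. 1 was higher, Cdc25b (0.26, adjusted p = 0.0165), beside 3.21%. Of 15 regulators of the mitotic program, E2f1 fell in siLuc against untreated (-0.26, SE 0.0607, adjusted p = 0.0341), a call lost after GC correction (-0.09, adjusted p = 0.288). Of 7 inhibitors of the cell cycle Cdkn1a, the p53 target p21, fell (-0.35, SE 0.0702, adjusted p = 0.0198) and passed after GC correction as well (-0.27, adjusted p = 0.00200), where Cdkn2b also rose (0.49, adjusted p = 0.0120). 0 of 20 genes of the G1/S transition passed by edgeR in the comparisons of treatments, and no inhibitor or regulator passed between siStag3 and siLuc. Of the 20, 5 had an unadjusted p under 0.05 in siLuc against untreated, against 3964 of 14246 genes. In each of the others 2 did, against 2417 (siStag3 against untreated) and 1122 (siStag3 against siLuc). After GC correction the G1 cyclin Ccnd1 rose in siStag3 against untreated (0.23, edgeR adjusted p = 0.00196), as did Cdkn2b (0.52, adjusted p = 0.00781).

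Between the sets, where 21.2% of all genes were lower and 21.4% higher, 11 of the 20 G1/S genes were lower in Set 3 and 1 higher, with a median of -0.16. After GC correction 12 were lower and 0 higher, with a median of -0.15, and Mcm4 of the replicative helicase passed both times (-0.37, SE 0.0469, and -0.26 corrected). Of the 49 further mitosis genes 16 were lower and 8 higher, with a median of -0.04. With the correction 17 were lower and 16 higher, and the median was 0.02, beside 21.1% and 21.4% of all genes. The kinetochore scaffold Knl1 (-0.66, SE 0.0815, and -0.38 corrected) and the condensin II subunit Ncapg2 (-0.58, SE 0.0674, and -0.43 corrected) were lower in both fits. Of the 7 inhibitors 5 were higher and 0 lower, with a median of 0.32, and after correction 3 were higher and 1, Cdkn1a, lower, with a median of 0.22. Cdkn2c (0.74, SE 0.167, and 0.51 corrected) and Cdkn2a (0.50, SE 0.0765, and 0.25 corrected) were higher in both. The difference between these lists was not tested.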

How the data were processed

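Bulk mRNA sequencing gave 9 libraries, 3 per group. The authors deposited raw counts per gene with no normalization, and the smallest sum of a gene over the libraries is 9. The submitters' processing notes name FastQC, Salmon, DESeq2 and GRCm39, with no further detail. Columns name a group, set and experiment but no replicate number. The 43 genes, the other lists and the design were chosen with earlier results of these data known. Genes were tested with edgeR 4.0.16 in R 4.3.3 (TMM, filterByExpr, robust quasi-likelihood F test, group plus set, all 9 libraries), and two-sided p-values were adjusted by Benjamini-Hochberg over 14246 genes at 0.05. SE is the absolute log2 fold change divided by the square root of F, and CPM were scaled by TMM. GC, length and shared 31-base words came from GENCODE M21 transcripts (16604 of 16636 genes), with GC correction over 20 bins. Alternatives included DESeq2 1.42.0, other scalings and filters, Set 1 alone, thinning and leaving out each library. Named in full per comparison were the 5 largest rises and falls that passed or, with fewer than 3, the 3 smallest p, and 13 representatives by library. The fit was tested on simulated data. No library was left out.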

Additional observations from a re-analysis of the deposited data

How the results depend on the processing

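Stag3 kept its direction in all alternatives, at -0.71 (adjusted p = 0.605) without the set and -0.76 to -0.67 with 1 library left out, where the call was lost without the Set 1 experiment 1 siStag3 library (-0.67, adjusted p = 0.0581). Between siStag3 and siLuc 0 mitotic genes passed in any of 21 alternatives; the median of -0.03 became 0.00175 with GC correction and ran from -0.0421 to 0.00367 with 1 library left out, above 0 only without the Set 3 siStag3 library. In siLuc against untreated the 1 gene called higher became 0 with no set term and 0 in Set 1 alone. The count was also 0 with set and experiment as covariates (added after the data were seen). It was 10 by DESeq2's Wald test, 10 with only the 6 libraries and 0 to 15 with 1 library left out. The share of all genes called higher was 1.65% in the main fit, 4.6% by DESeq2, 6.06% with only the 6 libraries and 8.39% in the fit with 15. The median of the 43 genes, 0.08, was 0.0331 with total count only and 0.0331 with GC correction. With 1 library left out that median was 0.0666 to 0.142. In siStag3 against untreated the 0 genes called higher became 1 by DESeq2, 2 with GC correction and 7 in Set 1 alone. With 1 library left out the count was 0 to 10. Of all genes, 1.08% were higher in the main fit, 3.21% with GC correction, 3.17% in Set 1 alone and 5.52% in the fit with 10. The median of 0.07 was 0.0235 with total count only, 0.115 in Set 1 alone and 0.0461 to 0.0966 with 1 library left out. Between the sets the 5 genes higher were 2 to 5, and the 22 lower 17 to 24, with 1 library left out; fewest were higher without the untreated Set 3 library (2), and 3 were without the Set 1 experiment 1 or the Set 3 siStag3 library. Ube2c reversed to -0.0120 with GC correction (adjusted p = 0.841). In fits that left a group with 1 library of a set, that library is assumed to vary like the others. The Wald test of DESeq2 for the interaction was not run. No paired analysis was possible because the replicate numbers of the labels do not appear in the columns. The experiment numbers do, and the fit with them as covariates blocks by set and experiment. The Set 3 siLuc library is alone in its block, so it carries no weight in the group differences of that fit. There Hmmr lost its call (0.22, edgeR adjusted p = 0.215), which is not wholly separate from leaving that library out. In the same fit the 43 genes had medians of -0.0199 (siStag3 minus siLuc), 0.0953 (siLuc minus untreated) and 0.0669 (siStag3 minus untreated). The causes of these changes were not tested. With 3 libraries a group, the intervals reach a median of 0.126 log2 to each side and are not adjusted for the number of genes. Passing the adjusted test could take larger differences. In siLuc against untreated, Smc2 at 0.26 and Smc4 at 0.42 did not pass, so differences of that size in single genes could be missed.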
